A study of Gallus gallus with 4 samples.

Results

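The protein tyrosine phosphatase family was read in single blood leukocytes of the chicken. Its members were the genes whose symbol is PTPN or PTPR followed by digits or letters, and 31 of the 15271 genes in the matrix fitted that rule. The question was which members are restricted to 1 blood lineage and which are found in all leukocytes. Protein tyrosine phosphatases remove phosphate from tyrosine residues and so act against the tyrosine kinases that carry signals from antigen, cytokine and adhesion receptors. The PTPR genes encode receptor-type enzymes that span the membrane, and the PTPN genes encode enzymes of the cytosol and inner membranes. PTPRC (CD45) and PTPN6 (SHP-1) are the members best known from leukocytes, where the first keeps the SRC family kinases ready to act and the second is recruited by inhibitory receptors.

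Blood came from healthy 24-week-old female layers, labelled as Bovans Robust hybrids (the study's methods name another layer line), with no treatment and 1 hen per library. Leukocytes were enriched on Ficoll, thrombocytes were depleted with magnetic beads against CD41/61, and the cells were profiled by droplet 3′ RNA sequencing. Of 4 deposited libraries, the cells of the fourth shared 4890 barcodes with those of the third and the values of the shared cells differed by 0.682% of their total, so the fourth was left out and n = 3 hens throughout. Other libraries shared 1 to 9 barcodes.

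The matrix holds whole-number values per gene and cell, read as counts of unique transcript tags corrected to a common depth. Libraries 1 to 3 held 12042 cells with median totals of 2318.5 to 2448 per cell. A cell was placed in a lineage when it showed at least 3 markers of that lineage and at least 2 more than of any other, with no family member among the markers. This placed 10866 cells: 6985 T and cytolytic-like, 2125 B-like, 1310 monocyte-like, 246 thrombocyte-like (40, 77 and 129 per library) and 200 eosinophil-like (78, 80 and 42). In every library the summed level of a lineage's own markers was at least 53.7 per 10000, and that of any other lineage's list was at most 10.7. The same markers placed the cells, so these sums are no independent check. Of the placed cells, 10799 lay in a cluster named for the same lineage when clusters were built without markers or members. Each cluster was named after the lineage in which most of its cells had been placed, so part of this agreement was built in. The monocyte-like cells carried the 4 heterophil genes MMP9, IL1R2, BHLHE40 and NR4A3 at a summed 25.2 to 59.8 per 10000, so heterophils were not set apart from them. Levels below are summed values per library and lineage, scaled to 10000 (mean ± SD, n = 3), and they count 3′ tags, so they are compared between groups of cells and not between genes.

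Of the 31 members, 28 passed the filter on low values (a mean of at least 0.05 per 10000 in some lineage), and 13 of these were called for a lineage, meaning that limma placed them higher in that lineage than in each of the 4 others with all 4 adjusted p-values under 0.05. Among all 11626 genes tested, 25.7% were called for some lineage. The calls were 3 members for T and cytolytic-like cells (PTPN14, PTPRF, PTPRB), 4 for monocyte-like cells (PTPRN2, PTPN2, PTPN3, PTPRK), 5 for thrombocyte-like cells (PTPRM, PTPRJ, PTPRG, PTPN5, PTPN9) and 1 for eosinophil-like cells (PTPRE). A member could pass the filter through the lineage where it was high. PTPRF, PTPRB, PTPRN2, PTPN3, PTPRK, PTPRM and PTPN5 passed only through the lineage that they were called for. They kept their calls with no filter on low values. No member was called for B-like cells by limma, and none had all 4 unadjusted p-values under 0.05. The background was 3.52% of all genes called for T and cytolytic-like cells, 2.74% for B-like, 7.25% for monocyte-like, 8.22% for thrombocyte-like and 3.96% for eosinophil-like cells. The members' shares of the 28 tested were 10.7% for T and cytolytic-like, 0 for B-like, 14.3% for monocyte-like, 17.9% for thrombocyte-like and 3.57% for eosinophil-like cells.

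A description by breadth was laid over the calls, with no test. The classes were formed for the members only. No share of all genes was computed for them, so the counts do not show whether the family is unusual. A called member at 4 or more times the next lineage was named restricted, and there were 9: PTPN14, PTPRF, PTPRB, PTPRN2, PTPN3, PTPRM, PTPRG, PTPN5 and PTPRE. A member at 0.5 per 10000 or more in all 5 lineages was named shared when its highest lineage stayed under 4 times its lowest, and only PTPRC and PTPN1 met this. PTPN2 was above 0.5 in all 5 lineages but uneven. A further 7 members (PTPN4, PTPN6, PTPN7, PTPN12, PTPN22, PTPRA, PTPRJ) were above 0.5 in some lineages only, and the other 12 stayed under 0.5 in every lineage. The restricted class required no such level. Its members PTPN3 and PTPN5, with highest means of 0.110 and 0.386, also stayed under 0.5 in every lineage. Nearest the limits were PTPN2, at 3.69 times the next lineage just outside the restricted class, and PTPRC, whose highest lineage was 3.80 times its lowest. The smallest leads inside the restricted class were 6.83 times (PTPN3) and 6.90 times (PTPRE). PTPN9, at 0.486, lay just under the 0.5 limit. PTPRG averaged 0.517, but its class rested on its call and its lead and not on that limit. The classes compare the 5 lineages as wholes, without their subgroups or the cells outside them. PTPN3 averaged 0.110 in monocyte-like cells and 0.0789 in the cytolytic-like subgroup described below. It averaged 1.66 in an unnamed cluster outside the lineages, where PTPRE was also present (values at the end). In the SOX5-high B-like subgroup described below, PTPN5 averaged 0.121 ± 0.174 and PTPRG 0.144 ± 0.213. Their thrombocyte-like means were 0.386 and 0.517, and these differences were not tested.

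**Figure D1:**
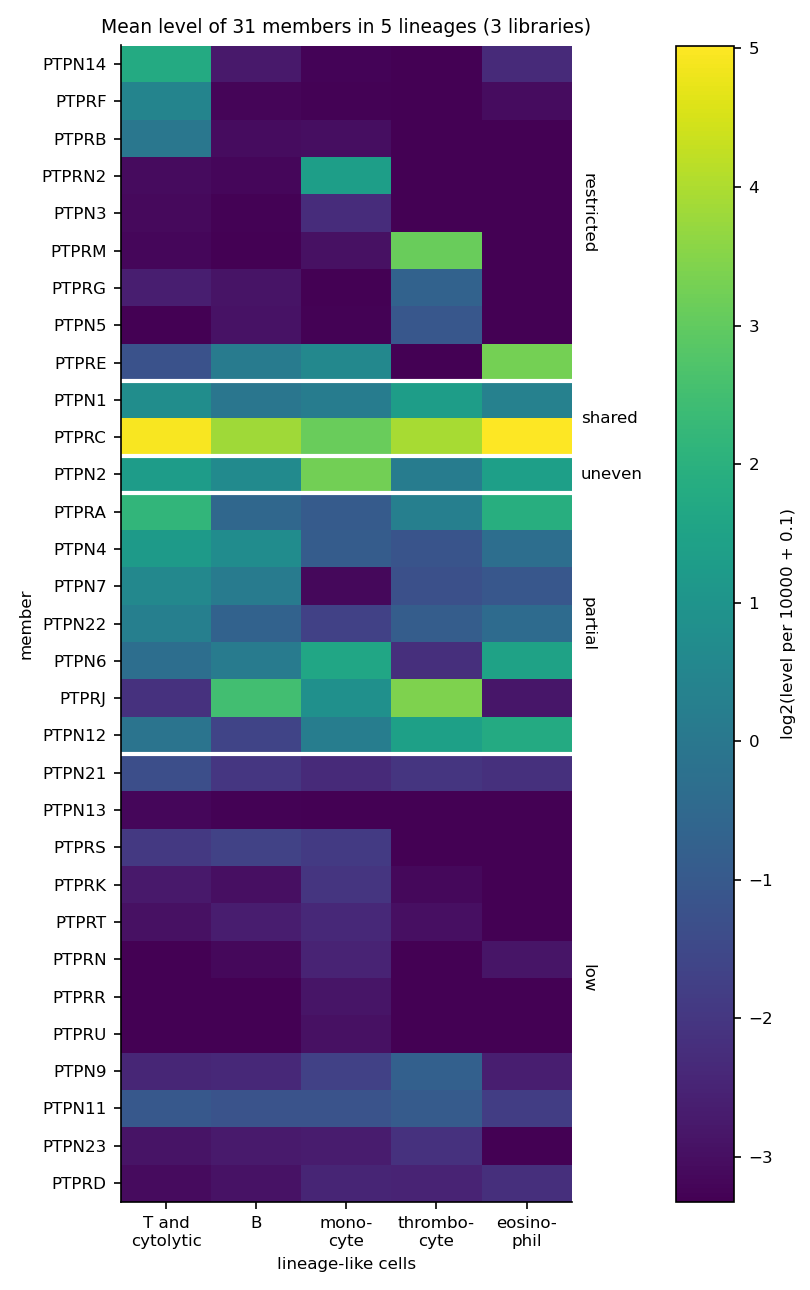
Mean level of each of the 31 members (rows, by breadth class) in the 5 lineages (columns), as log2(level per 10000 + 0.1) over 3 libraries. Each of the 9 restricted members is brightest in 1 lineage, whereas PTPRC stays between 8.51 and 32.4 per 10000 across the row.

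Among T and cytolytic-like cells the called members were a cytosolic enzyme with a FERM domain and a pair of receptor-type enzymes. PTPN14, known in mammals for binding the YAP transcriptional coactivator, lies on chromosome 3 at 20751412 to 20861251 (GRCg7b). It measured 2.96, 4.54 and 2.54 per 10000 in T and cytolytic-like cells, against 0.0763, 0.0225 and 0.0436 in B-like cells, at most 0.00975 in monocyte-like cells and 0 in thrombocyte-like cells. Its next highest lineage was eosinophil-like, at 0, 0.0628 and 0.235 from only 3 summed values, and the log2 difference from it was 4.25 ± 0.36 (SE; limma adjusted p = 4.58e-07). All 3 T and cytolytic-like profiles lay above all 12 others.

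PTPRF (LAR), a receptor-type enzyme of the cell adhesion kind, measured 1.31, 0.835 and 1.67 per 10000 in T and cytolytic-like cells, and no other lineage passed 0.0644 in any library. The next lineage, eosinophil-like, rested on a single value, and the log2 difference was 3.49 ± 0.25 (limma adjusted p = 8.79e-08). PTPRB (VE-PTP), best known from endothelium where it acts on the TIE2 receptor and on VE-cadherin, measured 0.949, 0.838 and 0.886 in T and cytolytic-like cells, against 0.0483, 0 and 0.0249 in monocyte-like cells. It was at 0 in all thrombocyte-like and eosinophil-like profiles. With each unit taken as a count, this allows up to 0.0605 and 0.0751 per 10000 by counting error alone. For each of these members the T and cytolytic-like profiles did not overlap those of any other lineage.

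Monocyte-like cells were set apart by PTPRN2 and PTPN2. PTPRN2 (IA-2β), a receptor-type member of dense-core vesicles that lacks phosphatase activity towards tyrosine, lies on chromosome 2 at 8790773 to 9413637. It measured 2.85, 2.49 and 2.07 per 10000 in monocyte-like cells, against 0.00735, 0.018 and 0.0306 in T and cytolytic-like cells, the next lineage, and it was at 0 in all thrombocyte-like and eosinophil-like profiles. The log2 difference from T and cytolytic-like cells was 4.43 ± 0.20 (limma adjusted p = 6.93e-10). In monocyte-like cells 26.6% showed a value of 1 or more and 21.4% did once each cell was thinned to 1500, against 0.229% and 0.143% of T and cytolytic-like cells (median totals 2408.5 and 2500). PTPRN2 was present whether or not the cell showed the heterophil gene MMP9: the level was 3.83, 2.47 and 1.42 in monocyte-like cells with MMP9 and 1.67, 2.5 and 2.26 in those without, and the groups overlapped. The 4 heterophil genes summed to 37.7 to 68.9 per 10000 in cells with MMP9 and still to 21.6 to 48.8 in those without. This split therefore does not set heterophils apart from monocytes.

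PTPN2 (TC-PTP), which acts on the JAK kinases and STAT proteins of cytokine signalling, measured 11.5, 8.92 and 7.76 per 10000 in monocyte-like cells, against 2.77, 1.7 and 3.17 in eosinophil-like cells. The mean was 3.69 times that of eosinophil-like cells (log2 difference 1.87 ± 0.28, limma adjusted p = 9.95e-05). It was found in every lineage, with 2.36 ± 0.0995 in T and cytolytic-like, 1.51 ± 0.0864 in B-like and 1.02 ± 0.426 in thrombocyte-like cells. The cytolytic-like subgroup described below averaged 4.93 ± 1.17. A cluster with red blood cell markers, given at the end, overlapped the monocyte-like values, and neither difference was tested. The annotated span of another gene in the matrix, LOC107052688, overlaps that of PTPN2, so reads of the shared stretch are uncertain. The other monocyte calls, PTPN3 (a FERM and PDZ domain enzyme) and PTPRK (a homophilic adhesion receptor), were of low level: 0.110 ± 0.047 per 10000 for PTPN3 and 0.144 ± 0.0433 for PTPRK in monocyte-like cells, from 33 and 43 summed values. PTPRK was no longer called without library 1 (largest limma adjusted p = 0.133).

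Thrombocytes are the nucleated counterpart of platelets in birds. The thrombocyte-like cells that remained after bead depletion held the most member calls (17.9% of the 28 tested). They also had the largest share of calls among all genes (8.22%). PTPRM, a receptor-type member that binds itself on neighbouring cells, lies on chromosome 2 at 98554892 to 99013726. It measured 9.16, 6.44 and 10.0 per 10000 in thrombocyte-like cells, against 0.0483, 0.00975 and 0.0311 in monocyte-like cells, and was at 0 in all B-like and eosinophil-like profiles. The mean was 287 times that of monocyte-like cells, which rested on 9 summed values (log2 difference 6.04 ± 0.23, limma adjusted p = 5.75e-11). Of thrombocyte-like cells 44.7% showed PTPRM (41.1% thinned), against 0.458% of monocyte-like cells (0.229% thinned), with median totals of 2004 and 2408.5.

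PTPRJ (CD148), which sets SRC family kinase activity in mouse and human platelets, lies on chromosome 5 at 12374341 to 12493479. It measured 9.96, 11 and 10.6 per 10000 in thrombocyte-like cells, against 5.21, 5.22 and 6.03 in B-like cells and 1.69, 1.52 and 1.93 in monocyte-like cells. It was nearly absent from T and cytolytic-like cells (0.129 ± 0.0229) and from eosinophil-like cells (0.043 ± 0.0744, from 2 summed values). The order thrombocyte-like, B-like, monocyte-like, T and cytolytic-like, eosinophil-like held with limma adjusted p-values of 0.0120, 0.000282, 7.08e-07 and 0.0306 between neighbours, although the lowest neighbours overlapped between libraries. The call over B-like cells, 1.92 times in the mean, was lost without library 2 (adjusted p = 0.105) and without library 3 (0.0667). The B-like lineage was pooled here. Its cells with high SOX5, described below, averaged 12.7 ± 0.797, above the thrombocyte-like mean of 10.5, a difference that was not tested.

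The other thrombocyte calls were of low level. PTPRG, with a carbonic anhydrase-like outer domain, measured 1.03, 0.131 and 0.39 in thrombocyte-like cells, against 0.0883, 0.0479 and 0.0467 in T and cytolytic-like cells, and the call was lost without library 3 (largest limma adjusted p = 0.0682). PTPN9, which in mammals sits on secretory vesicles, measured 0.687, 0.46 and 0.312, against 0.225, 0.234 and 0.168 in monocyte-like cells, and the call was lost without library 1 (0.147), without library 2 (0.154), with a pseudocount of 0.02 (0.167), with 4 markers required per cell (0.0861), with Louvain clusters (0.255) and with scaling without ribosomal and mitochondrial genes (0.0789). PTPN5 (STEP), a brain-enriched enzyme that acts on MAP kinases, measured 0.687, 0.197 and 0.273 in thrombocyte-like cells from 16 summed values, against 0.0203, 0.0525 and 0.0273 in B-like cells. Its annotated span, 12285850 to 12374904 on chromosome 5, overlaps the start of the span of PTPRJ, so its values are uncertain where reads came from the shared stretch. PTPRM and PTPRJ thus averaged 8.54 and 10.5 per 10000, whereas the 3 other calls rested on 16 to 21 summed values each. Thrombocyte-like cells also carried the heterophil genes at a summed 5.42 to 11.8 per 10000 and the 4 basophil markers at 5.78 to 7.21, and their part in these calls was not tested.

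PTPRE was the only member called for eosinophil-like cells (3.57% of the 28 tested, against 3.96% of all genes). The unnamed cluster given at the end also held PTPRE, and the difference from it was not tested. PTPRE, a receptor-type enzyme closely related to PTPRA, lies on chromosome 6 at 34065161 to 34147303. It measured 11.5, 9.04 and 8.09 per 10000 in eosinophil-like cells, against 1.43, 1.27 and 1.46 in monocyte-like and 1.04, 1.03 and 0.949 in B-like cells. It averaged 0.327 ± 0.0776 in T and cytolytic-like cells and was at 0 in thrombocyte-like cells, which allows up to 0.0605. The mean was 6.90 times that of monocyte-like cells (log2 difference 2.69 ± 0.21, limma adjusted p = 1.47e-07), and 62% of eosinophil-like cells showed it (59% thinned), against 28.4% of monocyte-like cells (19.4% thinned), at median totals of 2007 and 2408.5.

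**Figure D2:**
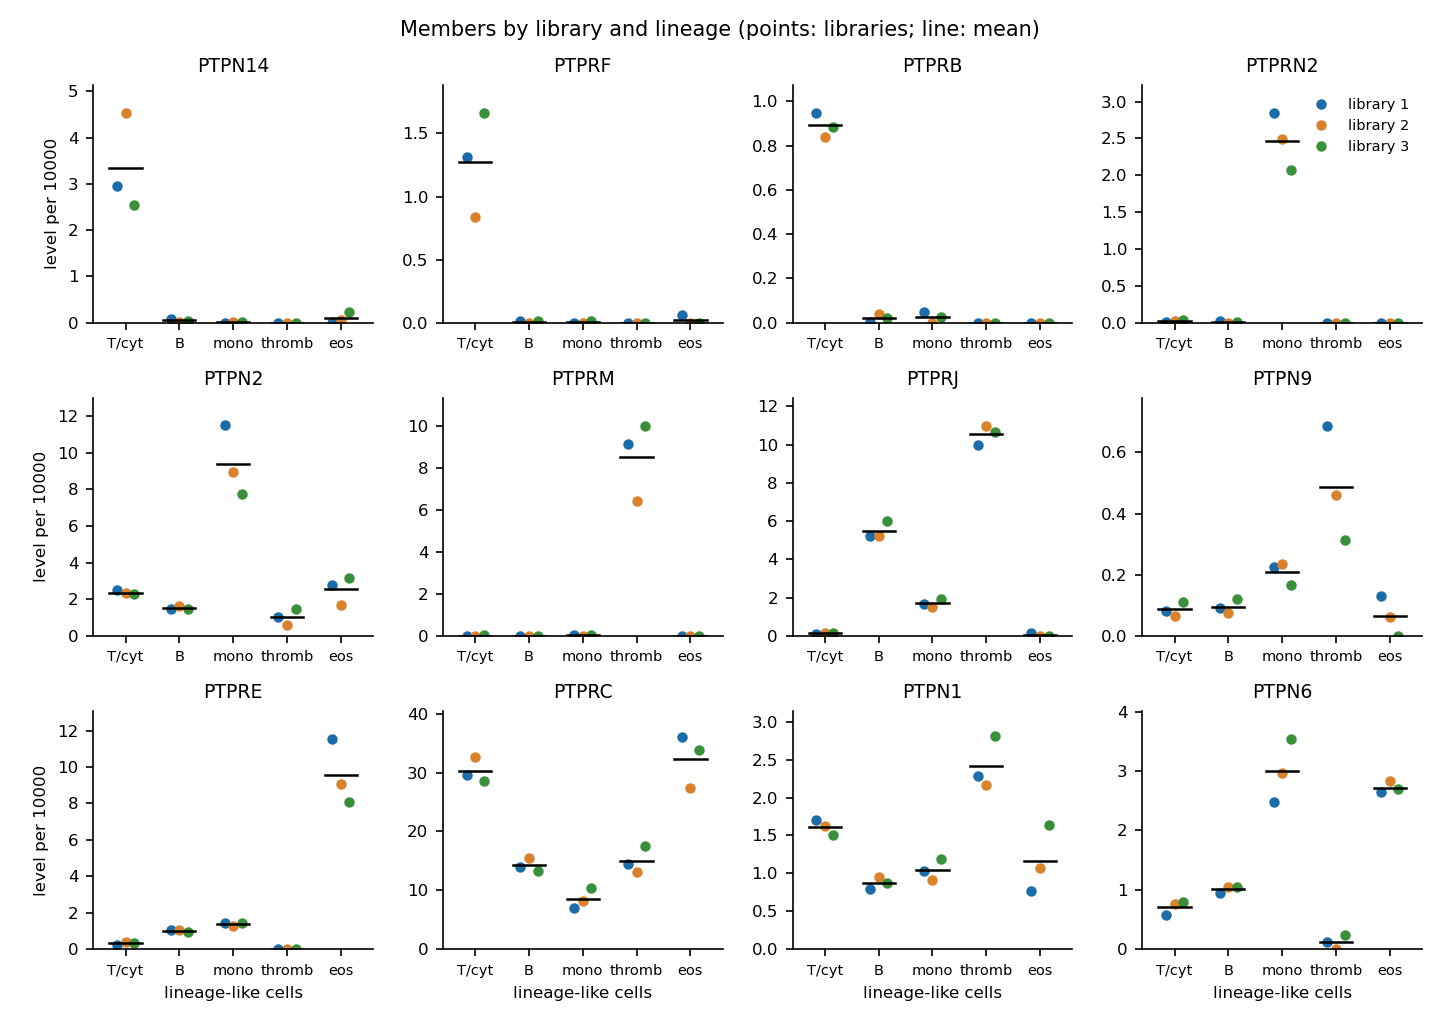
Level per 10000 of 12 members in each library (points) and their mean (line) in T and cytolytic-like (T/cyt), B-like, monocyte-like (mono), thrombocyte-like (thromb) and eosinophil-like (eos) cells. PTPRM is at 6.44 to 10.0 in thrombocyte-like cells and at most 0.0483 elsewhere, while PTPRC and PTPN1 are above 0.5 in every profile.

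The members found across the leukocytes differed in amount. PTPRC measured 36.0, 27.3 and 33.8 per 10000 in eosinophil-like cells, 29.6, 32.6 and 28.6 in T and cytolytic-like cells, 14.4, 13.1 and 17.6 in thrombocyte-like cells, 14.0, 15.4 and 13.3 in B-like cells and 6.99, 8.18 and 10.4 in monocyte-like cells. Eosinophil-like did not differ from T and cytolytic-like cells beyond their spread (log2 difference 0.09 ± 0.16, limma adjusted p = 0.697), nor thrombocyte-like from B-like cells (0.07 ± 0.16, adjusted p = 0.761), while every pair between these tiers passed the threshold with no overlap. The median gene was 0.42 to 0.45 lower on the log2 scale in eosinophil-like than in B-like or T and cytolytic-like profiles, and 0.38 to 0.41 lower in thrombocyte-like profiles. When profiles were scaled to equal medians instead, PTPRC was called for eosinophil-like cells (0.64 over T and cytolytic-like cells, largest adjusted p = 0.00567).

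PTPN1 (PTP1B), an enzyme of the endoplasmic reticulum membrane that acts on insulin and cytokine receptors, was the member with the narrowest range among those above 0.5 everywhere. It measured 2.29, 2.17 and 2.81 in thrombocyte-like cells, against 1.70, 1.63 and 1.5 in T and cytolytic-like cells (log2 difference 0.55 ± 0.24, limma adjusted p = 0.0678), and it averaged 0.875 ± 0.0768 in B-like cells, the lowest lineage. It became a thrombocyte call with a pseudocount of 0.5 (largest adjusted p = 0.0375) and with median scaling (0.0148). The annotated span of FAM65C overlaps that of PTPN1, so reads of the shared stretch are uncertain. PTPN11 (SHP-2), which couples growth factor receptors to RAS signalling, averaged 0.186 to 0.425 per 10000 across the lineages, and none of its 10 pairwise tests passed.

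Among the members above 0.5 in some lineages only, PTPN6 separated thrombocyte-like cells from the rest. It measured 2.48, 2.97 and 3.54 in monocyte-like cells, 2.64, 2.83 and 2.70 in eosinophil-like, 0.941, 1.04 and 1.05 in B-like, 0.577, 0.767 and 0.795 in T and cytolytic-like and 0.115, 0 and 0.234 in thrombocyte-like cells. Monocyte-like and eosinophil-like cells did not differ beyond their spread (log2 difference 0.12 ± 0.33, limma adjusted p = 0.835), and each was higher than the 3 other lineages. Thrombocyte-like cells were lower than all 4 others.

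The remaining members of that kind fell into lymphoid and other patterns. PTPN7 (HePTP), a phosphatase of the MAP kinases ERK and p38, averaged 1.38 ± 0.26 in T and cytolytic-like and 1.02 ± 0.25 in B-like cells, against 0.0127 ± 0.011 in monocyte-like cells. PTPN4, a FERM and PDZ domain enzyme, averaged 2.24 ± 0.241 in T and cytolytic-like and 1.55 ± 0.0749 in B-like cells and passed the test over each of the 3 other lineages in both. PTPRA, an activator of SRC family kinases, was high in T and cytolytic-like (4.41 ± 0.182) and eosinophil-like cells (3.70 ± 0.174), whose difference did not pass the test (limma adjusted p = 0.399), and low in monocyte-like cells (0.429 ± 0.134). PTPN12 (PTP-PEST), which acts on focal adhesion proteins, averaged 3.30 ± 1.51 in eosinophil-like and 2.56 ± 0.565 in thrombocyte-like cells, against 0.230 ± 0.0117 in B-like cells. PTPN22, a partner of the kinase CSK that dampens T cell receptor signalling in mammals, measured 1.15, 0.898 and 1.27 in T and cytolytic-like cells and 0.666, 0.292 and 0.573 in B-like cells, and the test between them did not pass (limma adjusted p = 0.163) although they did not overlap.

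The 12 low members included PTPN9, PTPRK and PTPN11, described above. PTPN21, a relative of PTPN14, reached 0.297 ± 0.0261 in T and cytolytic-like cells, and PTPRS, a LAR relative, 0.211 ± 0.131 in B-like cells. PTPN23, PTPRD, PTPRN and PTPRT stayed at or under 0.127 per 10000 in the mean of every lineage. PTPN13, PTPRR and PTPRU were under the filter, with 19, 17 and 12 summed values over the 5 lineages, and 16 of the 17 for PTPRR and 10 of the 12 for PTPRU came from monocyte-like cells.

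Within T-like cells, the γδ T-like cells (at least 2 of TARP, LOC121110951, SOX13 and KK34, and at most 1 of the 4 cytolytic genes GNLY, FASLG, GZMA and GZMM) were compared with the αβ T-like cells (none of the first 4 and at most 1 cytolytic gene). There were 2079 and 3132 such cells. A further 1022 T and cytolytic-like cells showed 1 of the first 4 genes and at most 1 cytolytic gene, and entered neither group. The comparison thus sets the 2 ends of the gate against each other. Of 19 members tested, 4 were higher in γδ T-like cells (21.1%, against 9.44% of 9473 genes) and 5 were lower (26.3%, against 8.66%). The median log2 difference was 0.02 over the members and -0.02 over all genes. The paper had reported PTPN14 in its γδ T-cell clusters from these data, so this result was known before it was tested here. It also names TARP, LOC121110951, SOX13 and KK34 for most of those clusters.

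Most of what T and cytolytic-like cells held of PTPN14 and PTPRF lay in the γδ T-like cells, with 4366 of 5273 summed values of PTPN14 and 1976 of 2313 of PTPRF. The remainder includes the cells placed in no subgroup. PTPN14 measured 8.88, 9.78 and 7.49 per 10000 in γδ T-like cells, against 0.275, 0.308 and 0.225 in αβ T-like cells, 32.3 times in the mean (log2 difference 4.57 ± 0.14, limma adjusted p = 1.03e-10). It was shown by 69.9% of γδ T-like cells (58.8% thinned), against 2.55% of αβ T-like cells (1.95% thinned), at median totals of 2515 and 2498.5. PTPRF measured 4.12, 1.80 and 5.19 in γδ T-like cells, against 0.0774, 0.0243 and 0.0866 in αβ T-like cells (4.44 ± 0.30, adjusted p = 1.46e-07), with library 2 lowest in both. Of γδ T-like cells 25.8% showed both genes, 44.1% PTPN14 alone, 11.5% PTPRF alone and 18.5% neither. The product of the separate shares was 26.1%.

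PTPN7 was 2.18, 2.40 and 2.45 in γδ T-like cells, against 0.843, 1.21 and 0.741 in αβ T-like cells (log2 difference 1.27 ± 0.16, limma adjusted p = 7.09e-05). PTPN6 was 0.752, 0.961 and 0.990, against 0.350, 0.438 and 0.398 (1.01 ± 0.15, adjusted p = 0.000251). Neither overlapped between the groups. In the other direction, PTPRB was almost confined to αβ T-like and cytolytic-like cells: it measured 0.0278, 0 and 0 in γδ T-like cells from 5 summed values, against 1.40, 1.63 and 1.46 in αβ T-like cells (-3.88 ± 0.16, adjusted p = 1.22e-09). PTPRJ, low in all T-like cells, was 0.0223, 0.00728 and 0.00524 in γδ T-like cells, against 0.0889, 0.146 and 0.17.

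PTPRA (3.10 ± 0.365 in γδ T-like cells, 5.4 ± 0.348 in αβ T-like cells), PTPN12 (0.467 ± 0.0519, against 0.983 ± 0.133) and PTPN4 (1.72 ± 0.356, against 2.48 ± 0.266) were lower in γδ T-like cells without overlap. PTPN4 was the least stable of them, with limma adjusted p = 0.0329, and it lost the call without library 1 (0.115), without library 3 (0.258) and with no filter on low values (0.0539). With the hen as a block PTPN22 was also higher in γδ T-like cells, at 1.17 ± 0.184 against 0.872 ± 0.207 (adjusted p = 0.132 without and 0.00742 with the replicate block). PTPRC, PTPN1 and PTPN2 did not pass, with means of 30.2, 1.59 and 2.06 in γδ T-like cells, against 32.1, 1.56 and 2.03 in αβ T-like cells. The heterophil genes summed to 2.00 to 4.79 per 10000 in γδ T-like cells, against 0.349 to 1.09 in αβ T-like cells, and the eosinophil markers to 5.21 to 6.30, against 2.43 to 3.17. Their part in these differences was not tested.

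The αβ T-like cells that showed CD4 and neither CD8A nor CD8BP (1009 cells) and those that showed CD8A or CD8BP and not CD4 (259 cells) both held PTPRB, at 1.53, 1.64 and 1.61 in the CD4 cells and 0.904, 1.92 and 1.63 in the CD8 cells, and the values overlapped. PTPN14 was at 0.0658, 0 and 0.0489 in the CD4 cells and at 0.355, 0.385 and 0.518 in the CD8 cells, far under the γδ T-like level in both. These values are a description with no test.

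Cytolytic-like cells (at least 2 of the 4 cytolytic genes, 752 cells) were compared with the γδ and αβ T-like cells summed (5211 cells). The 4 cytolytic genes were among the T and cytolytic markers, so no CD3 or T cell receptor gene was required of cytolytic-like cells. The paper proposes that a large part of its own cytolytic cluster might be natural killer cells. Such cells were not set apart here, so the comparison need not lie within T cells. Of 20 members tested, 5 were higher (25%, against 7.83% of 9646 genes) and 4 were lower (20%, against 12.4%). The median log2 difference was 0.11 over the members and -0.07 over all genes. Cytolytic-like cells had a median mitochondrial share of 11.3%, against 7.35% in the other T-like cells, and the eosinophil markers summed to 5.55 to 10.7 per 10000 there, against 3.89 to 4.39. Their part was not tested.

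The members that rose included PTPN2, PTPN6 and PTPN22, enzymes of cytokine, inhibitory and antigen receptor signalling. PTPN2 measured 6.28, 4.39 and 4.13 per 10000 in cytolytic-like cells, against 2.10, 2.07 and 1.94 in other T-like cells (log2 difference 1.21 ± 0.16, limma adjusted p = 0.00028), and PTPN6 measured 1.33, 1.39 and 1.72, against 0.486, 0.714 and 0.634 (1.16 ± 0.17, adjusted p = 0.000529). PTPN22 was 2.05, 1.5 and 1.86, against 1.05, 0.810 and 1.14 (adjusted p = 0.00599), and PTPN12 was 1.21, 1.5 and 1.47, against 0.712, 0.795 and 0.772 (adjusted p = 0.00228). All 4 were higher in 3 of 3 libraries with no overlap. PTPN22 lost its call without library 1 (0.0631) and without library 3 (0.0573), and PTPN12 without library 3 (0.0619). PTPN3 was called at 0.0789 ± 0.0437, against 0.00639 ± 0.006, from 17 and 9 summed values, and lost the call without library 1 (0.163) and without library 3 (0.262).

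PTPN14, PTPRF, PTPN21 and PTPN7 were lower in cytolytic-like cells. PTPN14 measured 0.0782, 0.116 and 0.2, against 3.20, 5.30 and 3.12 (log2 difference -4.09 ± 0.24, limma adjusted p = 6.45e-07), and PTPRF averaged 0.126 ± 0.167, against 1.51 ± 0.581 (adjusted p = 0.000342). The γδ T-like cells averaged 8.72 for PTPN14 and 3.70 for PTPRF, and the αβ T-like cells 0.270 and 0.0628. Beside αβ T-like cells alone, cytolytic-like cells were lower in PTPN14 and higher in the mean of PTPRF, differences that were not tested. PTPN21 measured 0.0391, 0 and 0.03, against 0.369, 0.345 and 0.346 (-1.90 ± 0.19, adjusted p = 3.06e-05), and here γδ T-like (0.302 ± 0.0555) and αβ T-like cells (0.385 ± 0.0458) were both above the cytolytic-like cells. PTPN7 averaged 0.875 ± 0.096, against 1.52 ± 0.281, and lost the call without library 3 (0.108). The γδ T-like cells averaged 2.34 for PTPN7 and the αβ T-like cells 0.931, and the difference from αβ T-like cells alone was not tested. PTPN14 was at 0.136, 0.202 and 0.279 in the 440 cytolytic-like cells with TARP and at 0, 0 and 0.0766 in the 312 without, which did not overlap and were both far under the γδ T-like level.

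With the hen as a block, PTPN4 (adjusted p = 0.0752 without and 0.00635 with the replicate block) and PTPRB (0.0937 and 0.0432) were also higher, and PTPRC (0.123 and 0.019) was lower, in cytolytic-like cells. PTPRC measured 23.7, 27.5 and 24.6 there, against 30.7, 33.9 and 29.6 in other T-like cells, and PTPRB 1.31, 1.30 and 0.970, against 0.935, 0.772 and 0.880. Both separated without overlap. The direction of PTPRB depended on the γδ T-like portion, in which it measured 0.0278, 0 and 0. The αβ T-like cells alone were at 1.40, 1.63 and 1.46, above the cytolytic-like cells in 3 of 3 libraries, a difference that was not tested.

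**Figure D3:**
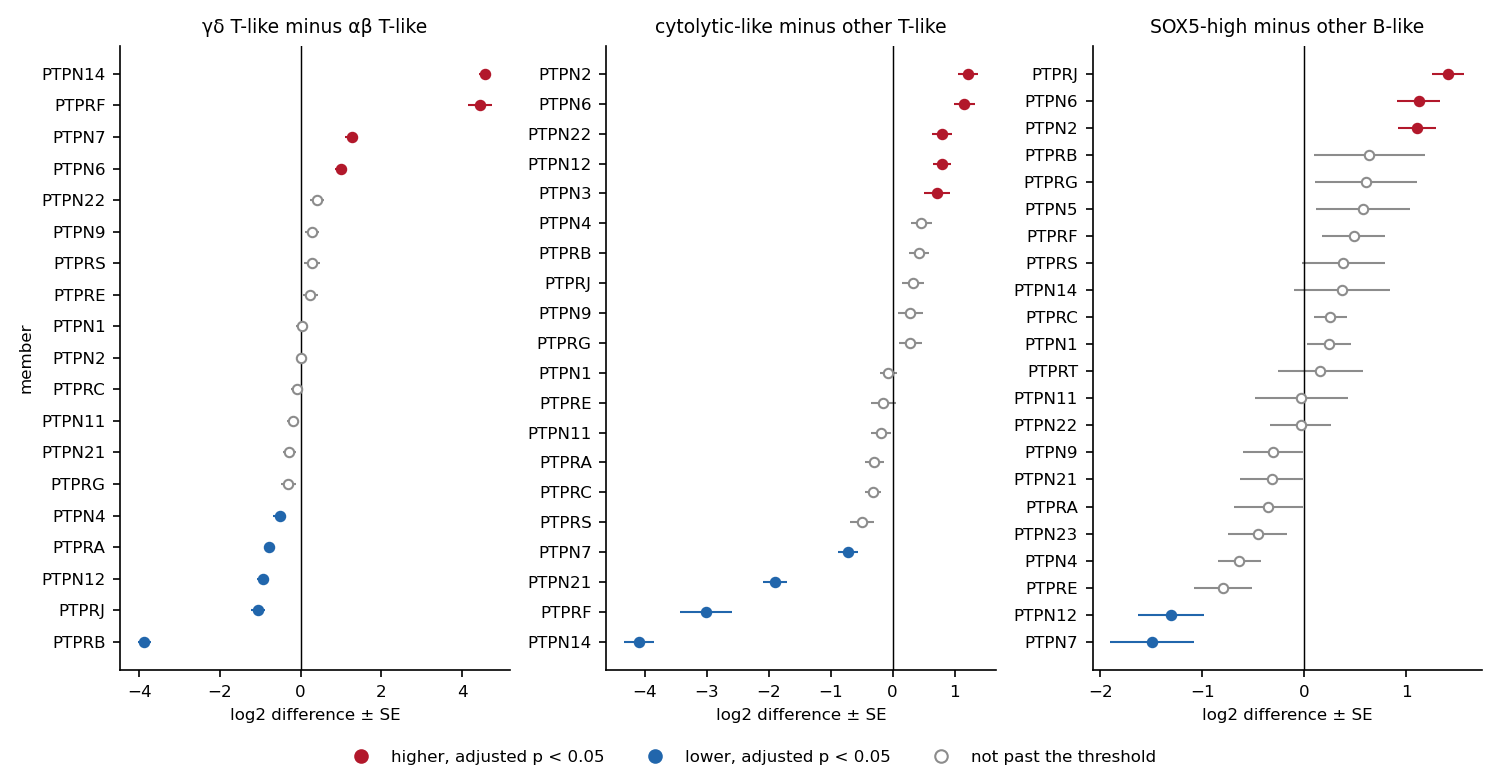
Log2 differences (points) with their standard errors (bars) for the members tested in γδ minus αβ T-like, cytolytic-like minus other T-like and SOX5-high minus other B-like cells, filled where the limma adjusted p was under 0.05. PTPN14 and PTPRF lie at 4.57 and 4.44 in the γδ comparison and at -4.09 and -3.01 in the cytolytic comparison. In the B-like comparison PTPRJ is highest at 1.41 and PTPN7 lowest at -1.49.

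Within B-like cells, those with a SOX5 value of 3 or more (199 cells, 63, 48 and 88 per library) were compared with those with none (1884 cells). Of 22 members tested, 3 were higher in SOX5-high cells (13.6%, against 4.28% of 9939 genes) and 2 were lower (9.09%, against 4.27%). The median log2 difference was 0.20 over the members and -0.03 over all genes. The level of PTPRJ in SOX5-high B-like cells was known before it was tested here.

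PTPRJ measured 12.5, 13.5 and 12 per 10000 in SOX5-high B-like cells, against 4.61, 4.38 and 5.19 in other B-like cells, 2.69 times in the mean (log2 difference 1.41 ± 0.16, limma adjusted p = 0.000419). PTPN6 measured 2.26, 2.40 and 1.62, against 0.825, 0.891 and 0.980 (1.12 ± 0.21, adjusted p = 0.00719), and PTPN2 measured 3.10, 3.37 and 2.62, against 1.30, 1.45 and 1.31 (1.10 ± 0.18, adjusted p = 0.00354). All 3 were higher in 3 of 3 libraries with no overlap. Only PTPRJ kept the call without each library in turn: PTPN6 lost it without library 1 (0.102), library 2 (0.0893) and library 3 (0.0787), and PTPN2 without library 1 (0.0599) and library 3 (0.0921).

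PTPN7 was 0.194, 0.801 and 0.175 in SOX5-high cells, against 0.977, 1.36 and 0.929 (log2 difference -1.49 ± 0.41, limma adjusted p = 0.0475), with library 2 highest in both groups. PTPN12 was 0.0647, 0.0801 and 0 from 2 summed values, against 0.247, 0.237 and 0.282 (adjusted p = 0.0302). PTPN7 lost the call without library 1 (0.266) and without library 3 (0.34), and PTPN12 without each of the 3 libraries in turn (0.0968 to 0.271). PTPRC measured 17.8, 16.7 and 15.6 in SOX5-high cells, against 13.7, 15.3 and 13.0, and did not pass the test (adjusted p = 0.40) although the groups did not overlap. The T and cytolytic markers summed to 0.962 to 2.52 per 10000 in SOX5-high cells, against 5.78 to 7.50 in other B-like cells, and the heterophil genes to 2.13 to 5.85, against 0.178 to 0.615. Their part in these differences was not tested.

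**Figure D4:**
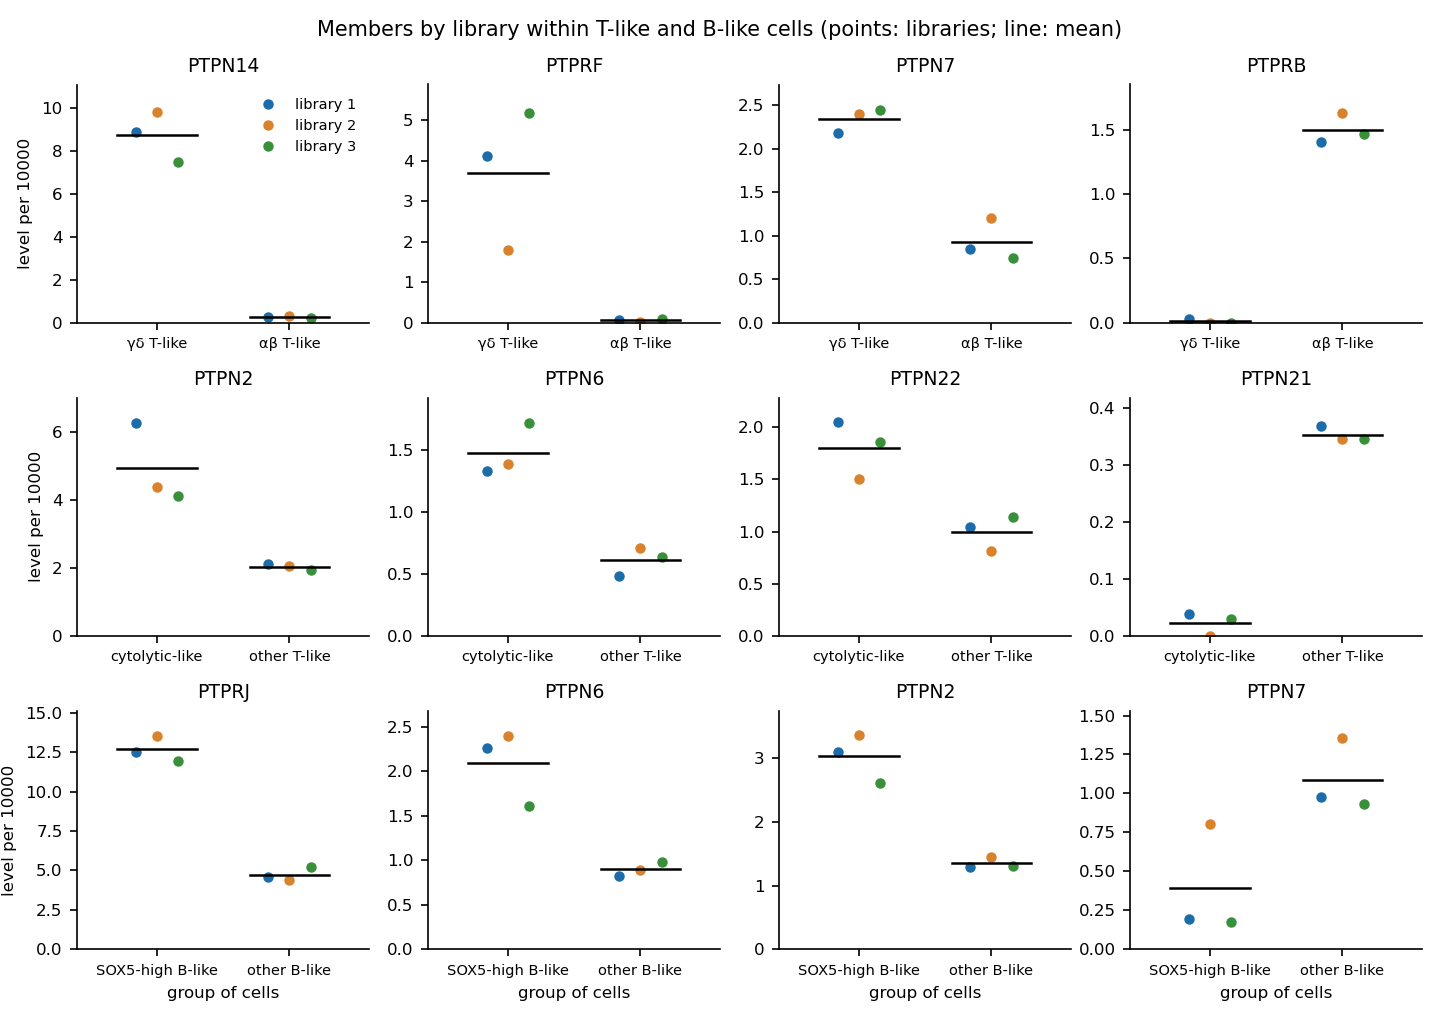
Level per 10000 in each library (points) and the mean (line) for members in γδ against αβ T-like cells (top), cytolytic-like against other T-like cells (middle) and SOX5-high against other B-like cells (bottom). In each panel the groups do not overlap, the closest being PTPN7 in B-like cells, at 0.175 to 0.801 in SOX5-high cells and 0.929 to 1.36 in the others.

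The enzymes that the family works against or beside were counted by the same tests. Of 29 cytoplasmic tyrosine kinases, 27 were in the matrix and 26 were tested between lineages. There were 5 called for T and cytolytic-like cells (among them TXK, ZAP70 and LCK), 5 for thrombocyte-like cells (BTK, SYK, MATK, YES1 and SRC), 2 for eosinophil-like cells (JAK1 and FER), 1 for monocyte-like cells (FGR) and none for B-like cells, where none passed at an unadjusted p under 0.05 either. In that order the shares of the 26 were 19.2%, 19.2%, 7.69%, 3.85% and 0. Among all genes they were 3.52%, 8.22%, 3.96%, 7.25% and 2.74%. Between the T-like groups BLK averaged 4.01 ± 0.228 in γδ T-like cells, against 0.119 ± 0.0598 in αβ T-like cells, and ZAP70 1.58 ± 0.137, against 0.406 ± 0.0305, whereas LCK averaged 0.0259 ± 0.0166, against 0.236 ± 0.0417. FYN, at 11.4 ± 1.17 against 8.99 ± 0.429, did not pass by limma (adjusted p = 0.0947 without and 0.00428 with the replicate block). Of 22 kinases tested there, 4 were higher in γδ T-like cells (18.2%, against 9.44% of all genes) and 4 were lower (18.2%, against 8.66%). In cytolytic-like cells 6 of 23 were higher, led by LYN at 0.702 ± 0.069, against 0.0919 ± 0.0487 in other T-like cells, and 5 were lower, led by TXK at 0.616 ± 0.102, against 4.3 ± 0.186. The share higher was 26.1%, against 7.83% of all genes, and the share lower was 21.7%, against 12.4%. In SOX5-high B-like cells 4 of 20 were higher (20%, against 4.28% of all genes, among them FES and FYN) and TXK was lower (5%, against 4.27%).

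Of 18 phosphatases outside the family name, 16 were in the matrix and 15 were tested between lineages, with UBASH3A and DUSP16 called for T and cytolytic-like cells, DUSP4 for monocyte-like, DUSP22 for thrombocyte-like and PTP4A1 for eosinophil-like cells, and none for B-like cells, where none passed at an unadjusted p under 0.05 either. In that order the shares of the 15 were 13.3%, 6.67%, 6.67%, 6.67% and 0. Among all genes they were 3.52%, 7.25%, 8.22%, 3.96% and 2.74%. UBASH3A, which restrains T cell receptor signalling, averaged 2.38 ± 0.119 in γδ T-like cells, against 5.88 ± 0.246 in αβ T-like cells. Of the dual-specificity phosphatases of MAP kinases, DUSP5, DUSP6, DUSP7 and DUSP16 were higher in γδ T-like cells and DUSP10 was lower, and ACP1 was lower too. Of 14 phosphatases tested there, 5 were higher (35.7%, against 9.44% of all genes) and 3 were lower (21.4%, against 8.66%). In cytolytic-like cells UBASH3B, PTP4A3 and DUSP10 were higher of 14 tested (21.4%, against 7.83% of all genes). A further 5 were lower (35.7%, against 12.4%), among them UBASH3A, DUSP6 and DUSP7. UBASH3A averaged 2.77 in cytolytic-like cells, between the γδ T-like (2.38) and αβ T-like means (5.88). DUSP6 averaged 0.0332 there, against 1.07 in γδ T-like and 0.0600 in αβ T-like cells. DUSP7 averaged 0.475, under both γδ T-like (3.66) and αβ T-like cells (1.78). Differences from either group alone were not tested. In SOX5-high B-like cells 4 of 13 were higher, among them UBASH3B at 2.24 ± 0.214, against 0.033 ± 0.0158 in other B-like cells, and none was lower by limma after adjustment, with 1 at an unadjusted p under 0.05. The share higher was 30.8%, against 4.28% of all genes, and the share lower was 0, against 4.27%.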

How the data were processed

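The study's methods give Cell Ranger count with the RefSeq GRCg7b annotation, doublet removal, cell filters and SCTransform per library in Seurat. The deposited matrix holds 16936 cells, the number that the study clustered after its quality control. The values the authors deposited are whole numbers with cell totals of 1577 to 3004, taken here as depth-corrected scores and not raw counts, and which steps the values had passed is not stated (computed from them, 109 to 563 cells per library failed the study's limits on genes, mitochondrial and haemoglobin shares), so the depth sequenced is unknown from them. The cell barcodes and gene symbols are as the authors deposited them. A barcode prefix named the library, and cells with none were taken as library 1. The deposited labels name Cell Ranger 1.2.0, and the methods another version.

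Values were summed per library and cell group (groups of 10 or more cells), scaled to 10000 and tested as log2(level + 0.1) with limma 3.58.1 (trend), on genes with a mean of 0.05 or more in some group, with Benjamini-Hochberg adjustment over all genes tested in each of 10 lineage pairs and in each of 3 further comparisons. A gene could pass this filter through only the group in which it was high. All 5 lineages entered 1 fit, and the other comparisons were fitted on their own groups. A fold change on this scale understates that of low genes. Libraries are separate hens, and each hen gave cells to either side of a comparison, so a fit with the hen as a block was the alternative. Deviations from the group means correlated between same-hen profiles at 0.316 to 0.432 (γδ and αβ), 0.219 to 0.236 (cytolytic-like and other T-like) and 0.0948 to 0.144 (SOX5-high and other B-like). Shares of cells are given as measured and after thinning each cell to 1500, which left out none. The thinning acted on the corrected values, so it does not even out the depth sequenced. Alternatives were the pseudocount, filter, scaling, marker minimum, clusters from Seurat 5.3.0, the study's cell filters, the copied library, the block and each library left out. The fit was tried on simulated profiles of the 3 further comparisons and not of the 5 lineages. Those profiles held no hen effect and changed no gene of low level. They therefore do not test the lineage calls or the calls at low levels. No doublet caller was run. Every member was to be accounted for, with each library's values for members past a threshold and for the best known leukocyte members. The members and gene lists were chosen with earlier results of these data known. Positions and overlaps are from RefSeq (GRCg7b), in which all 31 members were matched. Intervals and floors cover counting error only, with each unit of the corrected values taken as a count, so the true floors may be higher. Some genes of the kinase and phosphatase lists are not reported here.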

Additional observations from a re-analysis of the deposited data

Results flagged for a closer look

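PTPN3, a low monocyte call, was higher in a group of cells that no comparison used. Clustering gave a group of 55 cells (14, 15 and 26 per library) that passed all 4 basophil markers and 4 T and cytolytic markers, so it was given no name. PTPN3 measured 1.48, 1.69 and 1.81 per 10000 there (mean 1.66, from 23 summed values), and 21.8% of the cells showed it, against 0.113, 0.156 and 0.0622 in monocyte-like cells. All 3 libraries of this group were above every profile of the 5 lineages. The difference was not tested.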

How the results depend on the processing

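Across 14 alternatives no member reversed its direction while called: 470 repeats of a called member's result kept the call, 34 lost it, and 17 repeats gave a call to a member without one. With a pseudocount of 0.02 the thrombocyte-like count was 3 (PTPN9 and PTPRJ lost) and the count lower in SOX5-high B-like cells was 0, as it was with no filter on low values. With median scaling 2 members were called for eosinophil-like cells. Leaving out 1 library gave 3 to 4 thrombocyte-like calls, 1 to 2 eosinophil-like calls, 2 to 5 members higher in cytolytic-like cells, and in SOX5-high B-like cells 1 to 2 members higher and 0 to 1 lower. The causes were not tested. Among all genes, those higher in SOX5-high B-like cells numbered 50 and those lower 11 without library 3, against 425 and 424 with all libraries. Without library 3 the all-gene counts were also 485 higher and 397 lower in γδ T-like cells, against 894 and 820, and 385 higher and 589 lower in cytolytic-like cells, against 755 and 1192. That setting gave 771 genes for thrombocyte-like and 336 for eosinophil-like cells, against 956 and 460. Median scaling gave 756 genes for eosinophil-like and 261 for T and cytolytic-like cells, against 460 and 409. With the hen as a replicate block, 5 members were higher in γδ T-like cells, and 7 were higher and 5 lower in cytolytic-like cells. The block also raised the calls among all genes. In γδ T-like cells 1462 genes were higher and 1428 lower, against 894 and 820 without it. In cytolytic-like cells 1522 genes were lower, against 1192. The genes higher there were at most 1003 under any alternative, against 755. The block changed no other call of a member. For breadth, a presence limit of 1 per 10000 left 1 shared member (PTPRC), a limit of 0.2 gave 5 uneven ones, and a restriction limit of 2 times gave 0 shared, 2 uneven and 12 restricted. With 246 thrombocyte-like and 200 eosinophil-like cells, a listed 0 allows a level of up to 0.0605 or 0.0751 per 10000 by counting error alone. This bound takes each unit of the depth-corrected values as a count, so the true bound may be higher.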

Other observations

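Other members in the same unnamed cluster of 55 cells were PTPRE at 2.66, 2.54 and 4.81 per 10000 and PTPRT at 1.18, 0 and 1.2, while PTPRJ, PTPRM and PTPRN2 were at 0, which allows up to 0.221. In a cluster of 80 cells that passed the 3 red blood cell markers, PTPRC measured 5.85, 5.81 and 6.41, PTPN2 5.85, 5.14 and 8.24, and PTPN4 1.61, 4.91 and 6.18.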
